A study of Mus musculus with 25 samples.

Results

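miRNA sequencing was used to compare liver small extracellular vesicles (sEVs), lipid-enclosed particles shed by cells, between 12-month-old and 6-week-old mice. The libraries were chosen by the age in their labels: 5 libraries from mice 16 to 20 at 12 months and 5 from mice 6 to 10 at 6 weeks, 10 of the 25 libraries of the study. All mice were wild-type C57BL/6J, and no group carried a transgene, a deletion or a treatment. The other 15 libraries came from mice aged 1 week, 6 months and 14 months and entered the statistical model. Each library came from 1 mouse. The labels state that both sexes were used in equal parts but give no sex for a single mouse. With 5 mice at each age the sexes cannot be equal within an age, and their split at either age is not known. The batch field of the labels repeats the age, so handling that differed between the ages cannot be told apart from age. The labels describe dissociation of liver tissue with a kit made for human tumours and collection of the vesicles by ultracentrifugation, so the vesicles can come from any cell of the tissue or from blood left in it.

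miRNAs are short RNAs that guide Argonaute proteins to messenger RNAs, mainly by pairing of the seed, the bases near the 5′ end, and thereby lower translation and stability of those messenger RNAs. Most liver miRNA is made by hepatocytes, with miR-122 as its dominant member, while smaller sets come from immune, endothelial and stellate cells. Cells release part of their miRNA in vesicles, so a level in sEVs reflects both what the cells make and what they load and release. In a pool of vesicles from a whole tissue, fewer vesicles from a cell type and fewer copies per vesicle cannot be told apart.

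The mature sequences below belong to miRNAs on which the comparison turned, written 5′ to 3′ with the seed (bases 2 to 8) in capitals. They were read from RefSeq (GRCm38.p6), in which 924 of the 1095 miRNA names of the deposited table were found. The miR-29 members are shown because all 3 rose and share 1 seed, the miR-743 pair and miR-741-3p because they lie in 1 X-linked cluster, and miR-338-3p with miR-3065-5p because they are read from opposite strands of 1 locus.
miR-29a-3p: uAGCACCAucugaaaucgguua
miR-29c-3p: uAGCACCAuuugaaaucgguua
miR-29b-3p: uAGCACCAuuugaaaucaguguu
miR-741-3p: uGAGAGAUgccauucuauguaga
miR-743a-3p: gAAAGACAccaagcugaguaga
miR-743b-3p: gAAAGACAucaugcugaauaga
miR-155-5p: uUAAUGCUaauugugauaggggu
miR-184-3p: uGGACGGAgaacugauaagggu
miR-592-5p: aUUGUGUCaauaugcgaugaugu
miR-338-3p: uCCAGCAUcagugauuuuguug
miR-3065-5p: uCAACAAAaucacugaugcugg
miR-152-3p: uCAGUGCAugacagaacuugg
miR-148a-3p: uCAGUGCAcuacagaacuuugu
miR-221-3p: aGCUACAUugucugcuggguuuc
miR-222-3p: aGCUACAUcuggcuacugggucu
miR-409-5p: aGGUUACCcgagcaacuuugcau
miR-690: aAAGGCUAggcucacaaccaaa
Counted from 1 at the 5′ end, miR-29a-3p and miR-29c-3p differ by the single substitution C10U. From miR-29c-3p to miR-29b-3p the substitutions over 22 compared bases are G18A, U21G and A22U, all outside the seed. miR-152-3p shares its seed with the abundant miR-148a-3p, from which it differs by C9U, U10G and U20G, and miR-221-3p shares one with miR-222-3p. Of the 22 bases of miR-338-3p, 21 are complementary to a stretch of miR-3065-5p.

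Sequencing depth differed between the ages, so each call is also given with log2 library total as a covariate, or counted among those lost with it. Library totals at 6 weeks were 757330, 641579, 1012376, 1084868 and 1738208 counts in mice 6 to 10. At 12 months they were 839642, 1352924, 2461193, 2466584 and 3778798 counts in mice 16 to 20. The ratio of the means was 2.08, the ranges overlapped, and an exact two-sided permutation test gave p = 0.0714 (0.169 adjusted over 4 measures of depth). A floor of 3 counts, used for a miRNA without a count, equals 4.90 counts per 1000000 (CPM, after scaling with TMM factors) in the shallowest of these libraries, mouse 7. The number of table entries with a count was 616.6 ± 36.5 (SD, n = 5) at 6 weeks and 663 ± 46.9 at 12 months (exact permutation adjusted p = 0.169). After thinning every library to 641579 counts the order turned, with 554 ± 30.04 and 507 ± 61.5 entries (exact permutation adjusted p = 0.198).

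Against this background 22 of 391 tested entries (5.63%) passed an adjusted p of 0.05 in edgeR's quasi-likelihood test. At 12 months 15 (3.84%) were higher and 7 (1.79%) lower. All 15 that were higher are named miRNAs, while the 7 lower ones were miR-383-5p, miR-409-5p, miR-690 and 4 entries that the table calls unconservative, a term the labels do not explain. Of the 22, 16 changed at least 2-fold, 9 higher and 7 lower, and in 16 the 5 libraries of one age lay entirely above or below those of the other (8.18% of all tested entries did so). The median log2 fold change over the 391 entries was -0.07. Scaling by library totals alone, without TMM factors, moved this median to -0.22 and gave 9 higher and 11 lower calls in place of 15 and 7. None of the 22 changed direction with that scaling. The number of lower calls rested on single libraries: it was 3 without mouse 20, 4 without mouse 19 or mouse 6, and 13 without mouse 16.

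**Figure D1:**
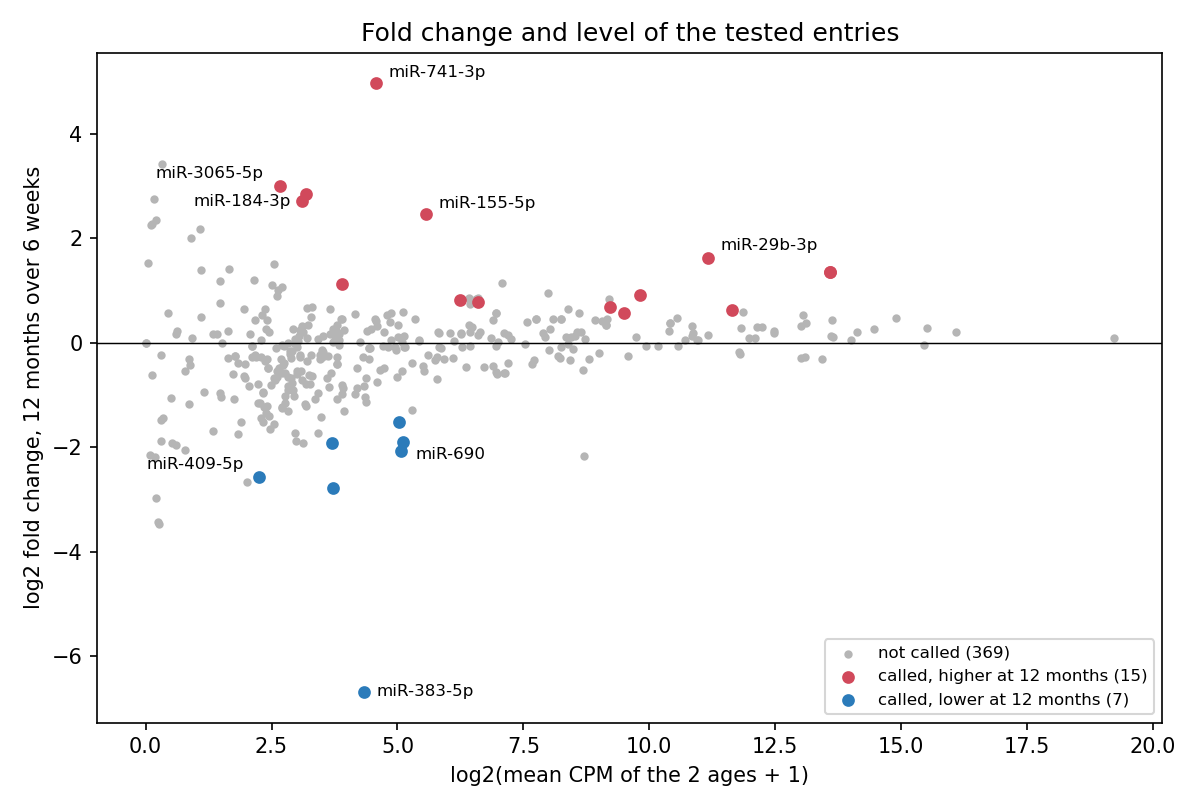
Each point is 1 of the 391 tested entries, with its mean level over both ages on the x axis, as log2(CPM + 1), and its log2 fold change from 6 weeks to 12 months on the y axis. The 15 called higher span low to high levels, and the 7 called lower had means of at most 52.5 CPM at 6 weeks, that of miR-690; miR-383-5p at -6.69 and miR-741-3p at 4.96 lie farthest from 0 among the calls.

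The miR-29 family, whose members repress collagen and other matrix messenger RNAs and the DNA methyltransferases Dnmt3a and Dnmt3b, gave the most abundant rises. miR-29b-3p stood at 949, 931, 1188, 917 and 1613 CPM in the 6-week mice 6 to 10 and at 2277, 2726, 3643, 4361 and 4223 CPM in the 12-month mice 16 to 20. Every 12-month library lay above every 6-week library, and the fitted log2 fold change was 1.62 ± 0.25 (SE, adjusted p = 1.33e-04), a 3.08-fold rise. miR-29a-3p was at 5241, 5048, 6244, 6609 and 11383 CPM at 6 weeks and at 11655, 11003, 15847, 25978 and 23658 CPM at 12 months. Its groups touched: mouse 17 at 12 months lay below mouse 10 at 6 weeks, and the other 4 older mice lay above all young ones. The log2 fold change of miR-29a-3p was 1.35 ± 0.30 and that of miR-29c-3p 1.36 ± 0.30 (adjusted p = 0.00751 for both). The counts of these 2 miRNAs stayed within 0.0151 log2 units of each other in all 10 libraries, so they do not amount to separate results. In a fit without the filter on low counts neither passed (adjusted p = 0.0684 and 0.0673).

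All 3 tested miRNAs with the seed AGCACCA thus rose. The list of 7 miR-29 arms had 6 tested members, of which these 3 rose and 0 fell, beside 3.84% called higher among all entries. The 3 include miR-29a-3p and miR-29c-3p, which are not separate results. The list's median log2 fold change was 1.23, beside -0.07 for all entries. With log2 library total as a covariate 1 passed and the list's median was 0.64. The passenger arm miR-29b-2-5p was at 1.10 ± 0.71 and did not pass (adjusted p = 0.375). As a share of all counts the family went from 1.48% ± 0.528 to 3.36% ± 0.888, with ranges of 1.06% to 2.37% and 2.48% to 4.33%. An exact permutation test of this share gave p = 0.00794, the smallest that 5 against 5 libraries allow, and an adjusted p of 0.0536 over 27 shares, which misses the threshold. Without mouse 10, whose share of 2.37% was the highest at 6 weeks and nearest the 12-month range, the young mean was 1.26%. The exact permutation adjusted p was then 0.0476, the same for all 9 of 27 shares that passed, so it does not set the family apart from them. The genes lie in pairs: Mir29a at chr6:31062660-31062747 and Mir29b-1 at chr6:31063023-31063093 (GRCm38, minus strand, outside annotated host genes), and Mir29b-2 at chr1:195037040-195037120 and Mir29c at chr1:195037547-195037634 (plus strand, within exons of the noncoding transcript A330023F24Rik). miR-29b-3p from the chromosome 6 and chromosome 1 copies is 1 sequence, so the counts cannot be divided between the loci.

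The miR-29 rise moved with depth. Within ages, miR-29a-3p gained 0.64 log2 units and miR-29b-3p 0.49 for each doubling of the library total (adjusted p = 2.13e-04 and 0.00102), and 48 of 391 entries (12.3%) had such a slope past the threshold. With log2 library total as a covariate the log2 fold change was 1.13 for miR-29b-3p (adjusted p = 3.22e-04) and 0.73 for miR-29a-3p (adjusted p = 0.0564), so the second call was lost. Between the totals of mouse 6 and mouse 10, where both ages have libraries, the 12-month mice 16 and 17 had 2277 and 2726 CPM of miR-29b-3p, against at most 1613 CPM in any 6-week mouse. Without the 3 older libraries that are deeper than every young one, miR-29b-3p was at 1.18 (adjusted p = 0.0562) and miR-29a-3p at 0.73 (adjusted p = 0.584), from 2 libraries against 5.

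**Figure D2:**
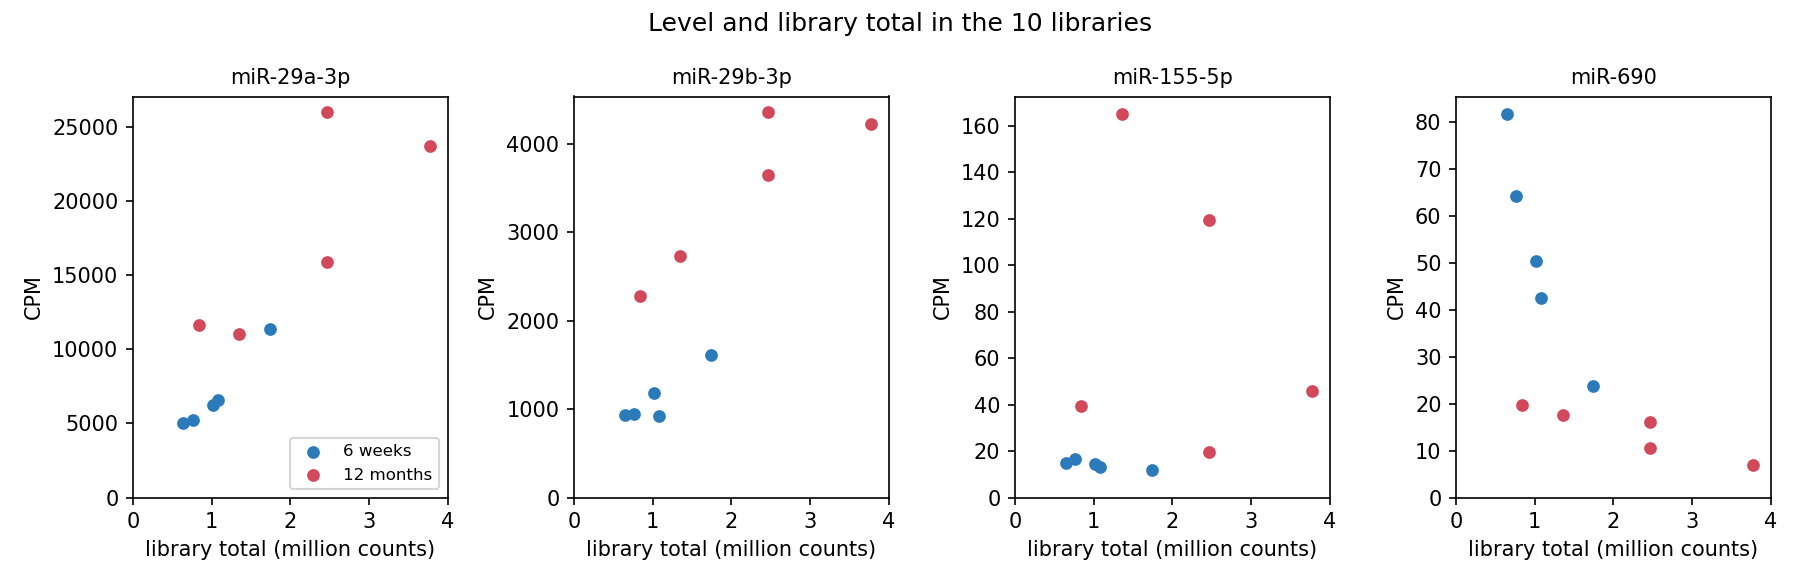
Each panel plots the CPM of 1 miRNA in the 10 libraries against the library total, with 6 weeks and 12 months in separate colours and the y axis starting at 0. miR-29a-3p and miR-29b-3p are higher and miR-690 lower in the deeper libraries; miR-155-5p at 12 months runs from 19.6 to 165 CPM with no order by depth.

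The largest rise among tested entries that passed was that of miR-741-3p, a member of an X-linked miRNA cluster known for its expression in testis. Its raw counts in the 6-week mice 6 to 10 were 0, 0, 1, 6 and 0. In the 12-month mice 16 to 20 they were 45, 56, 33, 174 and 56. All 12-month libraries were above all 6-week libraries, at 44.3 ± 31.5 CPM against 1.26 ± 2.31 (n = 5 each), and the log2 fold change was 4.96 ± 0.74 (adjusted p = 1.38e-04). The slope on depth was -0.16 ± 0.34 per doubling (SE) and did not pass (adjusted p = 0.837), with an SE too wide to show that depth plays no part. The log2 fold change was 5.08 with the covariate (adjusted p = 3.22e-04) and 5.11 without the 3 deepest older libraries (adjusted p = 4.05e-04). Without mouse 9, which held 6 of the 7 young counts, it was 7.18. With so few young counts, miR-741-3p passed the filter on low counts only through libraries of the older ages.

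Several neighbours of miR-741 shared this pattern, in a description made after their values were seen. RefSeq places 19 precursors between chrX:66776757 and 66839125 (GRCm38), and the table holds 30 entries from them. Of the 30, 23 had no count in any 6-week library and 28 had a count in at least 1 library at 12 months. The same split over all 1493 table entries was not counted. In single libraries, 561 to 662 of the 1493 had a count at 6 weeks and 596 to 727 at 12 months. Of the 30, 0 to 3 had a count in single libraries at 6 weeks and 15 to 26 at 12 months. The mean library total was 2.08 times as high at 12 months, and miR-741-3p alone was abundant enough to be tested. Some of the 28 had few counts, such as miR-883a-5p and miR-883b-5p with 1 over the 5 older libraries. Others went another way: miR-741-5p, the other arm of miR-741, had 3 counts at 6 weeks and 1 at 12 months, and miR-742-3p had 2 at each age. Counting entries with equal rows once, the cluster held 18 counts over the 5 libraries at 6 weeks and 727 at 12 months. Its summed level per library was 2.79, 0, 3.87, 7.97 and 1.79 CPM in mice 6 to 10, and 106, 67.4, 38.7, 184 and 37.5 CPM in mice 16 to 20. No library of one age reached the range of the other, and mouse 19 was the highest.

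Members without a count at 6 weeks can be given only as bounds, against 3 counts over the 5 young libraries. miR-743a-3p had 0 counts at 6 weeks and 13, 7, 10, 45 and 14 in the 12-month mice, at least 16.4-fold higher relative to TMM-scaled library totals. The arms miR-465a-3p, miR-465b-3p and miR-465c-3p, which the table lists with equal counts, had 0 and 46 counts (at least 8.45-fold), and miR-871-3p had 0 and 39 (at least 7.17-fold). miR-878-3p went from 1 to 31 counts, a ratio of 17.1 (95% exact Clopper-Pearson interval 2.85 to 697, counting error only). In an edgeR fit without the filter on low counts, 8 of the 30 entries were called higher and none lower; 18 of all 1493 entries (1.21%) were called higher there. The 3 equal miR-465 arms count among the 8. At the other ages the cluster held 0 counts at 1 week, 112 at 6 months and 633 at 14 months. Of the 21 miRNAs on the list for the wider region between Fmr1 and Slitrk2, 2 were tested and 1, miR-741-3p, rose, while miR-547-3p was at 1.00 ± 0.60 (adjusted p = 0.343).

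**Figure D3:**
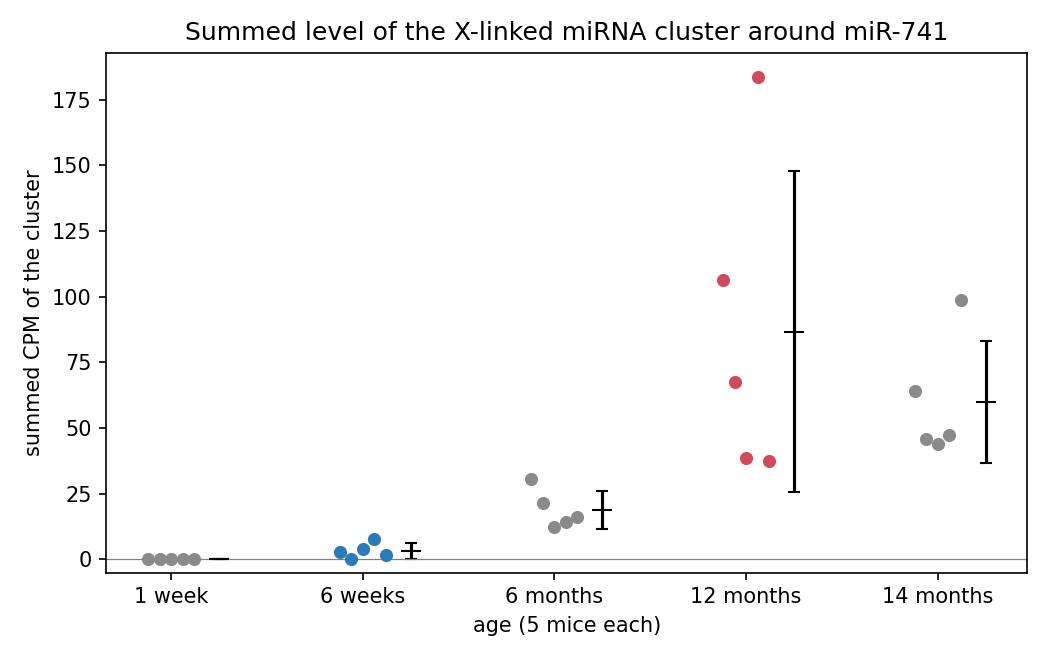
Points give the summed CPM of the X-linked cluster in each of the 25 libraries by age, with equal rows counted once, and the bars beside them show mean ± SD of 5 mice. Libraries at 6 weeks lie between 0 and 7.97 CPM and those at 12 months between 37.5 and 184 CPM.

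miR-155-5p, which is induced in activated macrophages and lymphocytes, rose with a wide spread among the older mice. It was at 16.8, 14.7, 14.5, 13.3 and 11.9 CPM at 6 weeks and at 39.5, 165, 19.6, 119.6 and 46.0 CPM at 12 months. The ages did not overlap, with mice 17 and 19 highest, and mouse 18 lay close to the young range. The log2 fold change was 2.46 ± 0.52 (adjusted p = 0.00609). The call held in all 22 alternative settings, among them the covariate (2.24, adjusted p = 0.0343) and the fit without the 3 deepest older libraries (2.89, adjusted p = 0.00178).

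miR-142a-5p, made in blood cells of most lineages, was at 455, 539, 690, 723 and 723 CPM at 6 weeks and at 876, 1658, 769, 1457 and 1089 CPM at 12 months. Mice 17 and 19 were again the highest, no library overlapped, and the log2 fold change was 0.90 ± 0.23 (adjusted p = 0.0152). The call was lost with the covariate (0.85, adjusted p = 0.0789) and without mouse 6, mouse 17 or mouse 19, while the slope on depth was 0.06 per doubling (adjusted p = 0.837). Of 9 tested members of the immune list, these 2 rose, 0 fell and 7 did not pass, with a median log2 fold change of 0.44, beside 3.84% called higher among all entries. With the covariate 1 of the 9 passed and the median was 0.28. Among the 7, the lymphocyte miRNA miR-150-5p was at 0.95 ± 0.41 (adjusted p = 0.206). miR-146a-5p, a brake on Toll-like receptor signalling, was at 0.59 ± 0.34 (adjusted p = 0.315). The summed level of the 10 listed immune miRNAs was 5311 to 7053 CPM at 6 weeks and 4757 to 11876 CPM at 12 months, so the ranges overlapped, and no listed member was without a count. The part of the number of immune cells in these values was not tested.

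Low-abundance rises came from scattered loci. miR-184-3p, a miRNA studied in cornea and brain, had 0, 2, 2, 0 and 7 counts at 6 weeks and 6, 20, 37, 36 and 27 counts at 12 months. The CPM values did not overlap, and the log2 fold change was 2.70 ± 0.63 (adjusted p = 0.0111), or 2.66 with the depth covariate (adjusted p = 0.0453). miR-592-5p, which lies in an exon of a transcript of the glutamate receptor gene Grm8 (chr6:27936655-27936750, minus strand), had the same counts as miR-184-3p at 6 weeks, and 5, 11, 29, 37 and 77 at 12 months. Its log2 fold change of 2.84 ± 0.71 (adjusted p = 0.0152) was 2.30 with the depth covariate and then did not pass (adjusted p = 0.126). Without mouse 10 the log2 fold changes were 3.48 for miR-184-3p and 3.61 for miR-592-5p.

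miR-338-3p and miR-3065-5p rose from opposite strands of the same site in an intron of Aatk (chr11:120014765-120014862 and chr11:120014767-120014853). miR-3065-5p had 1, 1, 0, 2 and 2 counts at 6 weeks and 7, 11, 35, 9 and 33 at 12 months, without overlap in CPM. Its log2 fold change was 3.00 ± 0.76 (adjusted p = 0.0152) and 3.30 with the depth covariate (adjusted p = 0.0369). miR-338-3p, the more abundant product, was at 69.8, 47.3, 56.2, 91.2 and 89.3 CPM at 6 weeks and at 82.8, 138, 125, 127 and 139.9 CPM at 12 months. Mouse 16 lay within the young range and the other 4 older mice lay above it, with a log2 fold change of 0.78 ± 0.20 (adjusted p = 0.0152) that did not pass with the covariate (0.54, adjusted p = 0.171), without mouse 8 (adjusted p = 0.0556) or without mouse 20 (adjusted p = 0.0634). The mature sequences printed above are complementary over 21 bases, and whether counting used the strand is not given in the sources used here.

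**Figure D4:**
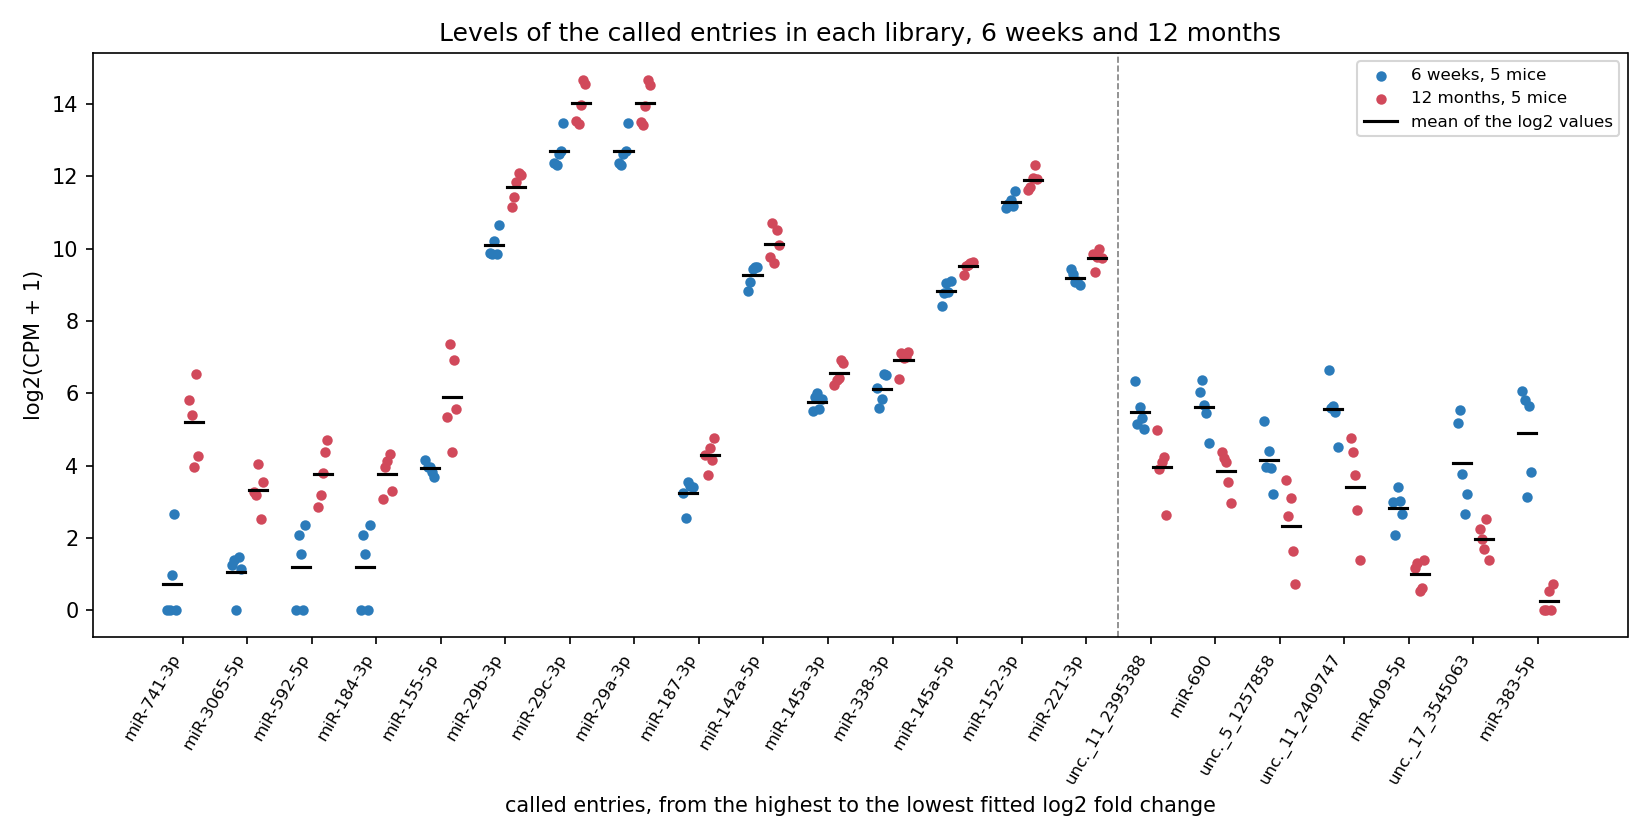
Points are log2(CPM + 1) of the 22 called entries in each library of both ages, 5 mice each, and black bars are the means of the log2 values. The dashed line separates the 15 entries called higher from the 7 called lower, where "unc." stands for unconservative; in 16 of the 22 the 2 groups of points do not overlap.

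Smaller rises included both arms of miR-145a, a smooth muscle and stellate cell miRNA. miR-145a-5p was at 341, 438, 526, 444 and 544 CPM at 6 weeks and at 612, 733, 746, 781 and 788 CPM at 12 months, without overlap. The log2 fold change was 0.67 ± 0.17 for miR-145a-5p (adjusted p = 0.0165) and 0.82 ± 0.23 for miR-145a-3p (adjusted p = 0.0351). The first call was lost without mouse 6 (adjusted p = 0.0538), and the second without any 1 of mice 6, 9, 10, 19 and 20. With the covariate neither passed, at 0.45 for miR-145a-5p (adjusted p = 0.171) and 0.78 for miR-145a-3p (adjusted p = 0.136). Of 9 tested members of the stellate and smooth muscle list these 2 rose, 0 fell, and the median was 0.38, beside 3.84% called higher among all entries. An unadjusted edgeR p below 0.05 was reached by 6 of the 9, beside 75 of all 391 entries. The 6 include miR-199a-3p with miR-199b-3p and miR-199a-5p with miR-199b-5p, pairs with equal counts in all 10 libraries. DESeq2 called 4 of the 9, both miR-145a arms, miR-199a-5p and miR-199b-5p, beside 40 of all 391 entries. With the covariate 0 of the 9 passed, at a median of 0.38. Its summed level was 7565 to 9152 CPM at 6 weeks and 8279 to 11615 CPM at 12 months. miR-199a-3p and miR-199b-3p, stellate cell miRNAs listed with equal counts, were each at 0.38 ± 0.13 and did not pass (adjusted p = 0.0853).

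The remaining rises were miR-152-3p, miR-187-3p and miR-221-3p. miR-152-3p, which targets the DNA methyltransferase Dnmt1, was at 2232, 2385, 2623, 2325 and 3064 CPM at 6 weeks and at 3165, 3347, 3970, 5124 and 3900 CPM at 12 months. The ages did not overlap, with a log2 fold change of 0.63 ± 0.16 (adjusted p = 0.0152) that was 0.56 without mouse 19 (adjusted p = 0.0760). Within ages miR-152-3p gained 0.26 log2 units per doubling of the library total (adjusted p = 0.0207), and with the covariate its fold change was 0.37 and did not pass (adjusted p = 0.189). miR-221-3p, a repressor of the cell cycle inhibitor p27, was at 695, 632, 540, 553 and 507 CPM at 6 weeks and at 922, 655, 863, 1014 and 853 CPM at 12 months. Mouse 17 lay within the young range, and the log2 fold change was 0.56 ± 0.17 (adjusted p = 0.0425). Its cluster partner miR-222-3p was at 0.73 ± 0.24 and did not pass (adjusted p = 0.0788). The low-level miR-187-3p was at 8.64 ± 2.24 and 19.1 ± 5.19 CPM, with a log2 fold change of 1.12 ± 0.30 (adjusted p = 0.0219). miR-221-3p lost its call without any 1 of mice 8, 9, 10, 16 and 19, and miR-187-3p lost it without mouse 6, 7 or 20. With the covariate miR-221-3p was at 0.52 (adjusted p = 0.149) and miR-187-3p at 0.96 (adjusted p = 0.136), so neither passed.

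Among the falls, miR-383-5p, a miRNA described in testis and ovary, had the smallest p of all entries. Its raw counts were 47, 34, 8, 55 and 22 in the 6-week mice and 0, 0, 1, 0 and 2 in the 12-month mice. The level dropped from 38.1 ± 26.1 CPM to 0.219 ± 0.309 CPM, and the fitted log2 fold change was -6.69 ± 0.73 at an adjusted p of 5.03e-07. The 166 and 3 counts of the ages, divided by TMM-scaled library totals, gave a 100-fold lower level at 12 months (100.4, 95% exact Clopper-Pearson interval 33.7 to 492, counting error only). The slope on depth was -0.31 and did not pass (adjusted p = 0.651), and without mouse 20 the log2 fold change was -7.43. miR-383-5p was called in all 19 alternative settings in which it was tested.

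miR-409-5p, from the imprinted Dlk1-Dio3 cluster (chr12:109743158-109743236, in an intron of the noncoding gene Mirg), had 5, 2, 10, 8 and 9 counts at 6 weeks and 1, 2, 1, 1 and 5 at 12 months. The CPM values did not overlap, with a log2 fold change of -2.58 ± 0.56 (adjusted p = 0.00751) and of -3.17 with the depth covariate (adjusted p = 0.00181). Mouse 7 at 6 weeks and mice 16 to 19 at 12 months lay below the floor of 3 counts, so this separation rests on few counts. It was the only one of 55 tested members of that cluster to pass, against 54 that did not, beside 1.79% called lower among all entries. The list's median was -0.08, and -0.25 with library totals alone, -0.33 with the covariate and -0.85 without the 3 deepest older libraries. Over all entries the medians in these 3 alternatives were -0.22, -0.07 and -0.08.

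miR-690, in an intron of Fgf12 (chr16:28599935-28600043), showed counts that hardly followed the library total. The raw counts were 46, 50, 52, 48 and 40 at 6 weeks and 16, 24, 36, 20 and 21 at 12 months. In CPM these are 64.2, 81.6, 50.4, 42.5 and 23.8 against 19.8, 17.6, 16.0, 10.6 and 6.85, with the deepest library lowest at each age. The log2 fold change was -1.91 ± 0.46 (adjusted p = 0.0130), the slope within ages -0.86 per doubling (adjusted p = 0.00761), and with the covariate the fold change was -1.01 and did not pass (adjusted p = 0.226). The call was also lost without mouse 20 (-1.65, adjusted p = 0.0576).

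The unconservative entries that were called had log2 fold changes of -2.78 (unconservative_17_3545063), -2.07 (unconservative_11_2409747), -1.51 (unconservative_11_2395388) and -1.92 (unconservative_5_1257858). All 4 had a falling slope on depth past the threshold, between -1.11 and -0.65 per doubling, and none passed with the covariate. All but unconservative_17_3545063 also lost the call without 1 of at least 4 mice. The class as a whole was described after its values were seen. Of 52 tested unconservative entries, 48 had a fold change below 0 with a median of -1.03, and 26 had a falling slope that passed, out of 30 such slopes among all 391 entries (7.67%). Their median sum over 5 libraries was 36 counts at 6 weeks and 31 at 12 months, while the median of the 339 named entries was 103 and 156. Named entries were split nearly evenly, with 175 above 0, 162 below and a median of 0.04.

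Entering log2 library total as a covariate left 8 calls of 391 (2.05%), 5 higher (1.28%) and 3 lower (0.767%). They were miR-29b-3p, miR-741-3p, miR-155-5p, miR-184-3p, miR-3065-5p, miR-383-5p and miR-409-5p from the 22, and miR-30a-5p as the only addition. The fold change of all 22 kept its direction. miR-30a-5p, one of the abundant liver miRNAs, was at 13318, 11088, 11816, 12026 and 13032 CPM at 6 weeks and at 9521, 8067, 11768, 9771 and 10258 CPM at 12 months. Its log2 fold change was -0.31 ± 0.11 (adjusted p = 0.0980) and became -0.42 with the covariate (adjusted p = 0.0497). Thinning every library to 641579 counts gave 25 calls of 273 tested (9.16%), 16 of them among the 22.

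Leaving out mice 18, 19 and 20, an alternative chosen after the depths were seen, brought the totals of both ages into 1 range. With 2 libraries against 5, 4 of 451 tested entries (0.887%) passed. They were miR-741-3p, miR-383-5p, miR-155-5p and miR-743a-3p, the last with no count at 6 weeks and thus only a bound as given above. With few or no counts at 1 and 6 weeks, miR-741-3p and miR-743a-3p passed the filter on low counts only through libraries of the older ages. miR-743a-3p was not tested in the fit of all 25 libraries. All 22 had the same direction as in the comparison of 5 against 5.

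**Figure D5:**
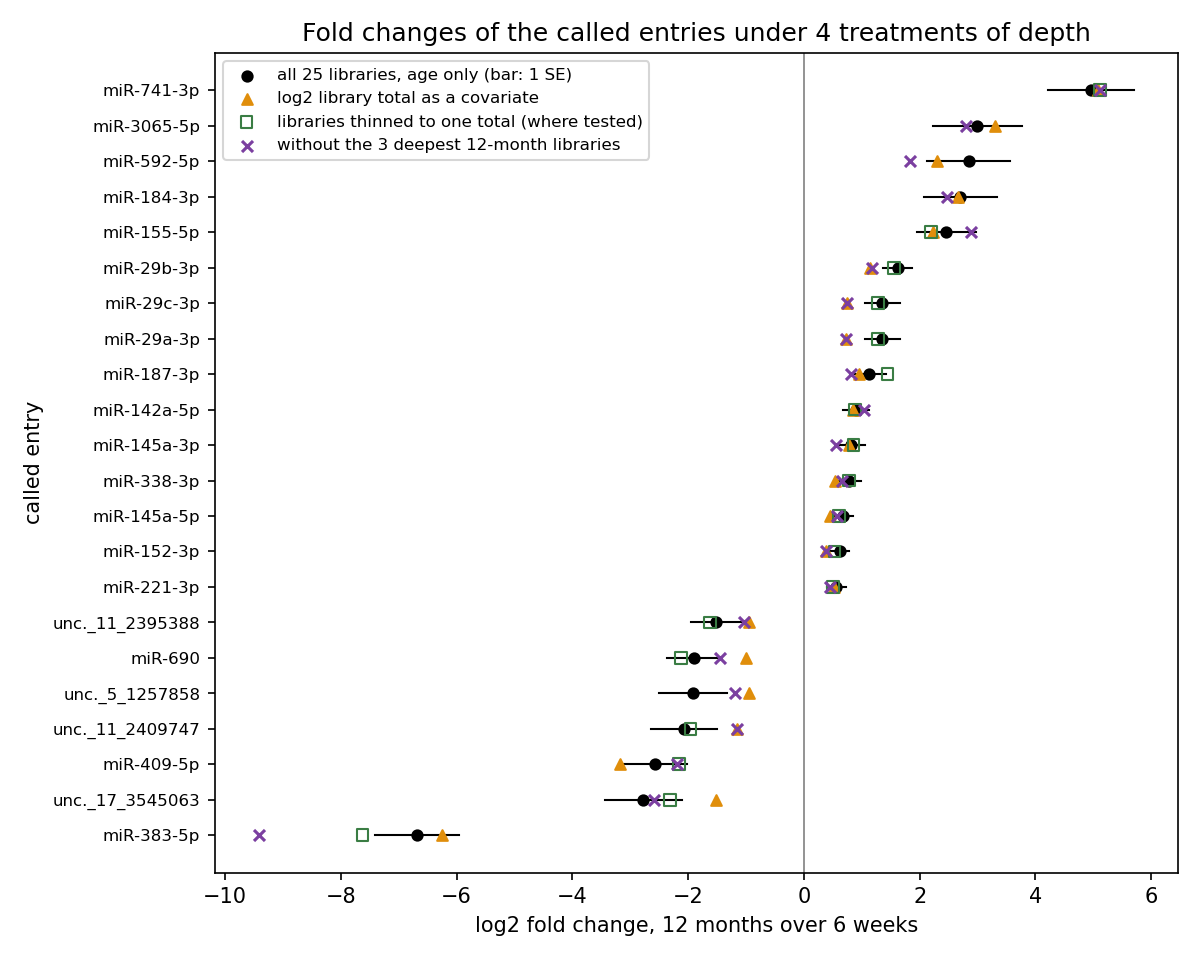
For each of the 22 called entries the log2 fold change from 6 weeks to 12 months is shown from the model with age only (bar of 1 SE), with log2 library total as a covariate, from thinned libraries, and without the 3 deepest 12-month libraries. All symbols of an entry lie on the same side of 0, and those of miR-690 and of the unconservative entries move toward 0 with the covariate.

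Hepatocyte miRNAs, the bulk of the counts, gave no call between the ages. miR-122-5p held 58.4% ± 2.75 of counts at 6 weeks and 56.0% ± 1.31 at 12 months (exact permutation p = 0.127, adjusted p = 0.280). Without mouse 10 the young mean was 59.5% and the adjusted p 0.0476, as for all 9 of 27 shares that passed then. With all 10 libraries after TMM scaling the order turned, at 593234 ± 39400 CPM and 633255 ± 69962 CPM. The 10 most abundant miRNAs together held 83.4% ± 1.40 and 81.9% ± 0.804. Of 11 tested hepatocyte miRNAs, 0 rose and 0 fell in edgeR, beside 3.84% called higher and 1.79% called lower among all entries. Their median log2 fold change was 0.20, or 0.03 with library totals alone. An unadjusted edgeR p below 0.05 was reached by 4 of the 11, beside 75 of all 391 entries. DESeq2 called 1, miR-194-5p, beside 40 of all 391 entries. miR-194-5p came nearest, at 6496, 7216, 8460, 7886 and 8090 CPM against 9530, 9024, 12201, 8887 and 10077 CPM. These values did not overlap, and the log2 fold change of 0.38 ± 0.12 missed the threshold (adjusted p = 0.0545). miR-802-5p was at 0.84 ± 0.33 (adjusted p = 0.134) and miR-192-5p at 0.28 ± 0.20 (adjusted p = 0.435).

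The title of the study names ageing and lipid metabolism. Of 14 tested miRNAs on the ageing and senescence list, 4 rose, 0 fell and 10 did not pass, with a median of 0.29, beside 3.84% called higher among all entries. The 4 were the miR-29 guide arms and miR-155-5p, already described. With the depth covariate 2 of the 14 passed and the median turned to -0.02. miR-34a-5p, a p53 target that is often used as a senescence marker, was at 460 and 610 CPM on average, with a log2 fold change of 0.41 ± 0.35 (adjusted p = 0.518). It gained 0.53 log2 units per doubling of the library total within ages (adjusted p = 0.0291), and with the covariate its fold change turned to -0.019 (adjusted p = 0.994). miR-181a-5p was at -0.88 ± 0.28 and did not pass in edgeR (adjusted p = 0.0644), while DESeq2 called it lower (-0.85, adjusted p = 0.0382). Of 22 tested lipid and cholesterol miRNAs 1 rose, miR-29a-3p, and 0 fell, beside 3.84% called higher and 1.79% called lower among all entries. The median of this list was 0.09, or -0.06 with library totals alone. With the covariate 0 of the 22 passed and the median was -0.01. DESeq2 called 2 of the 22, miR-29a-3p higher and miR-378a-3p lower, beside 40 of all 391 entries. miR-378c, whose counts match those of miR-378a-3p from the gene of the metabolic coactivator PGC-1 beta, was at -0.58 ± 0.20 and did not pass in edgeR (adjusted p = 0.0853), but did in DESeq2 (-0.58, adjusted p = 0.0410).

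Among the other lists, no tested member passed in the let-7 family (0 of 16), the miR-17-92 cluster and paralogs (0 of 14), the biliary and other epithelial list (0 of 7), the erythroid list (0 of 5), the neural and endocrine list (0 of 4), the H19 and Igf2 loci (0 of 3), the endothelial list (0 of 2) and the muscle and heart list (0 of 2). Over all entries 22 of 391 (5.63%) passed, so 0 in lists this small does not set them apart. At an unadjusted edgeR p below 0.05 there were 2 in the let-7 family and 2 at the H19 and Igf2 loci. The neural list had 1 and the others 0, beside 75 of all 391 entries. DESeq2 called miR-137-3p alone among them, beside 40 of all 391 entries. The 10 tested miRNAs with the let-7 seed GAGGUAG all had fold changes above 0, but with library totals alone 4 of the 10 were below 0. let-7b-5p was at 0.53 ± 0.20 (adjusted p = 0.134) and let-7c-5p at 0.44 ± 0.17 (adjusted p = 0.133). Both rose with depth within ages, by 0.30 and 0.24 per doubling (adjusted p = 0.0303 and 0.0419), and were at 0.21 and 0.19 with the covariate (adjusted p = 0.712 and 0.706). The 4 tested miR-181 members were all below 0 with either scaling. With TMM factors they lay between -0.88 and -0.36, with a median of -0.64, and none passed in edgeR, while DESeq2 called miR-181a-5p. With library totals alone their median was -0.80. Erythroid miR-451a was at -0.33 ± 0.35 (adjusted p = 0.612), and the summed erythroid level ranged from 180.1 to 516 CPM at 6 weeks and from 232 to 452 CPM at 12 months. Neural miR-137-3p was at 83.7 ± 30.3 and 185 ± 97.9 CPM, with a log2 fold change of 1.14 ± 0.35 (adjusted p = 0.0534). It gained 0.62 per doubling within ages (adjusted p = 0.00638) and was at 0.55 with the covariate (adjusted p = 0.480). The entry miR-101c, at 0.65 ± 0.20, had the same adjusted p as miR-137-3p and groups that did not overlap.

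The levels at the other 3 ages are given for orientation, and comparisons that share the 6-week or 12-month libraries are not independent of this one. At 1 week, before the younger age compared, miR-29b-3p was at 75.6 ± 30.2 CPM and miR-741-3p had no count. miR-155-5p was at 62.8 ± 37.1 CPM at 1 week, above the 14.2 ± 1.80 CPM of 6 weeks and beside 77.9 ± 61.7 CPM at 12 months. miR-383-5p was at 22.3 ± 6.52 CPM at 1 week and 38.1 ± 26.1 CPM at 6 weeks. miR-29b-3p was at 2413 ± 252 CPM at 6 months and 3953 ± 1149 CPM at 14 months, around the 3446 ± 917 CPM of 12 months. miR-741-3p was at 12.1 ± 4.35 and 27.2 ± 12.3 CPM at 6 and 14 months, and miR-155-5p at 28.2 ± 18.3 and 39.3 ± 9.20 CPM. miR-383-5p was at 2.63 ± 1.04 CPM at 6 months and 0.607 ± 0.651 CPM at 14 months, below the 38.1 CPM of 6 weeks.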

How the data were processed

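The authors deposited 1 table of raw counts with 1493 entries for 25 libraries, 1095 named miRNAs and 398 unconservative entries, the latter with 0.0836% of counts. Per the submitters' processing notes, Bowtie, edgeR and the mouse build mm10 were used. The miRNA annotation, the mismatches allowed and whether counts are reads or unique molecules are not given in the sources used here, so intervals cover counting error only. Near-identical miRNAs can share reads: 23 pairs agreed within 0.3 log2 units in all 10 libraries at a mean of at least 20 counts.

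Counts were fitted in edgeR 4.0.16 (R 4.3.3) with TMM factors, filterByExpr and a robust quasi-likelihood model of 5 ages over 25 libraries, with Benjamini-Hochberg adjustment over 391 entries at 0.05. SE is the log2 fold change divided by the square root of F. The script was tested on simulated data. DESeq2 1.42.0 was an alternative. Shares and totals were compared with exact permutation tests (scipy 1.17.1). Named were all calls, entries called with the depth covariate or thinned libraries, the 10 next smallest p, the 10 most abundant miRNAs and up to 4 members of each list; members beyond this rule, such as miR-34a-5p, miR-146a-5p and the X-linked neighbours, were chosen after their values were seen. The comparison, the 16 lists and the rules were chosen with earlier results of these data known. Positions and sequences are from RefSeq and host genes from GENCODE, both on GRCm38.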

Additional observations from a re-analysis of the deposited data

Results flagged for a closer look

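Each group of 5 libraries was searched for a single library far from the other 4. Of 80 groups, 6 had one, and chance gives about 1 in 20. Mouse 10, the deepest at 6 weeks, was high for miR-29c-3p (11417 CPM, the others 5079 to 6623), miR-29a-3p (11383 CPM, the others 5048 to 6609), the let-7 family (8.47% of counts, the others 7.06% to 7.41%) and the H19 and Igf2 loci (0.00207% of counts, the others at most 4.94e-04%). Mouse 9 at 6 weeks had 5.31 CPM of miR-741-3p, against at most 0.969 CPM in the other 4. Mouse 16, the shallowest at 12 months, had 82.8 CPM of miR-338-3p, below the 125 to 139.9 CPM of the others.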

How the results depend on the processing

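No paired analysis was possible because no mouse number occurs at both ages. Beside the 22 calls (15 higher, 7 lower), DESeq2 gave 40 (24 and 16), the 20 adult libraries 54 (39 and 15), and the 10 libraries alone 36, 17 of them lower. The covariate in 25 libraries gave 8 (5 and 3), the covariate in 10 libraries 8 higher and 11 lower, the 2 shallower 12-month libraries alone 4 (3 and 1), library totals alone or a mean of at least 50 counts 9 higher and 11 lower each, and thinned libraries 11 lower. Leaving out 1 mouse gave 15 to 31 calls, 11 to 18 higher and 3 to 13 lower. Members of any list that were called numbered 9, and 23 with the adult libraries, 15 in DESeq2, 4 with the covariate, 3 with the shallower libraries and 7 to 12 without 1 mouse. Shares passing numbered 0 of 27 (7 at an unadjusted exact permutation p below 0.05), and 0 to 9 without 1 mouse, the 9 without mouse 10. The difference of 46.4 in entries with a count was -47 after thinning and 30.4 to 63.2 without 1 mouse. Without mouse 16 its exact permutation p, not adjusted over the measures of depth, was 0.0476, beside 0.127 with all 10 libraries. miR-34a-5p turned to -0.019 with the covariate. The cause of these changes was not tested, apart from the smaller number of libraries or entries in some. With totals down to 641579 counts, a miRNA without a count can still have been present at up to 4.90 CPM in the shallowest library.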
